A study of Arabidopsis thaliana with 6 samples.

Results

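Paclobutrazol-treated rosettes of Arabidopsis thaliana were compared with untreated rosettes, on the 4 of the 6 arrays of the series whose titles place them in these groups. The PBZ group (2 arrays) came from pots watered 14 days after sowing with 10 mL of paclobutrazol at 50 mg/L, which is 0.5 mg per pot, and the control group (2 arrays) had no treatment. The remaining 2 arrays came from plants sprayed with 1 mL of 50 µM gibberellin GA3 every second day (GA), and they enter here through the shared estimate of the spread between arrays. All plants, controls included, were Col-0 carrying 35S:HF-RPL18B, a FLAG-tagged ribosomal protein gene driven by a constitutive viral promoter. They grew in soil with 16 h of light, and whole rosettes were taken at day 27 by the sample titles, or day 25 by the source label. Replicates are called biological with no further detail, so the p-values measure the spread between these arrays. The molecule label gives total RNA, although the protocol text also describes RNA pulled down with the tagged ribosomes.

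Gibberellins are diterpene hormones that promote stem and leaf elongation, germination and flowering. Paclobutrazol blocks ent-kaurene oxidase, a cytochrome P450 early in gibberellin synthesis, and plants given it stay dwarfed and dark green. A gibberellin bound to a GID1 receptor brings DELLA proteins, which hold back growth, to the F-box protein SLY1 for degradation, so that DELLA proteins build up when the hormone is short. DELLA proteins also bind repressors of jasmonate signalling, which links low gibberellin to jasmonate-dependent defence and pigment genes.

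The arrays were alike in brightness, with median deposited intensities of 33.8 and 33.9 on the PBZ arrays and 32.4 and 33.2 on the control arrays. The ratio of the 3′ to the 5′ probe set of actin, a check of RNA integrity, was 4.39 and 3.54 on the PBZ arrays and 4.84 and 3.62 on the control arrays. The same ratio was lower for GAPDH, at 1.006 and 0.925 on the PBZ arrays and 0.854 and 0.872 on the control arrays. For ubiquitin it was 1.183 and 1.089 on the PBZ arrays and 1.369 and 1.238 on the control arrays. A probe set, a group of probes read as 1 value, was the unit of every test. Of 10 listed leaf mesophyll markers only 1 was measured, RCA, the activase of Rubisco. It had intensities of 4237.3 and 4195.6 in PBZ rosettes against 4741.1 and 3858.2 in controls, and its arrays overlapped. Of 8 listed root markers 2 were measured, both near the dim end of the scale. The root hair expansin EXPA18 had 9.2 and 15.4 in PBZ rosettes and 12.9 and 14.6 in controls, overlapping. The root hair expansin EXPA7 had 5.7 and 12.4 in PBZ rosettes and 2.5 and 4.9 in controls, apart without passing (log2 fold change 0.46, limma adjusted p = 0.422). The part of root tissue in the results was not tested. Flower, vascular and pollen markers had no probe set of their own under the annotation used here. In whole rosettes, fewer cells of a type and less RNA per cell cannot be told apart.

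Of 22746 probe sets, 117 passed at a limma adjusted p under 0.05, which is 0.514% of those tested. Of these, 53 (0.233%) were higher and 64 (0.281%) lower in PBZ rosettes. Fold changes below are of intensity + 10 on the log2 scale, and they understate the change of dim genes. Most of the transcriptome moved little, and 90.3% of probe sets had a log2 fold change smaller than 0.5 in size. Among the passing probe sets the median size was 1.67 for rises and 1.35 for falls, and the 2 groups of arrays did not overlap in any of the 117. Over all probe sets, the arrays did not overlap in 9479 (41.7%), with 5273 (23.2%) higher and 4206 (18.5%) lower in PBZ. The calls depend on all 6 arrays: 0 probe sets passed without any 1 of the PBZ or control arrays, and 4 passed without either GA array or with PBZ and control fitted alone. With a pseudocount of 1 in place of 10, 0 passed. With all arrays and a pseudocount of 10, the unadjusted limma p was under 0.05 for 3121 probe sets (13.7%).

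**Figure D1:**
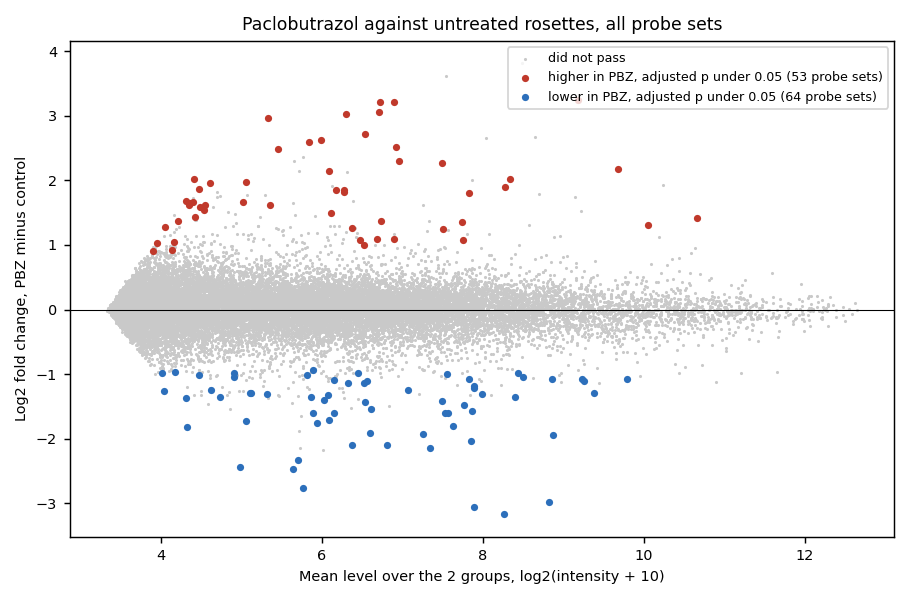
Log2 fold change of PBZ minus control against mean level, log2(intensity + 10), with 1 point per probe set. The 53 higher and 64 lower probe sets that passed lie at a size of 0.90 or more. Most grey probe sets, which did not pass, crowd around 0, but some lie far from it. Of 291 probe sets with a size of 1 or more, 51 rises and 58 falls passed. The largest rise of all (3.81) did not pass.

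The passing probe sets name 1 gene in 54 cases, several in 2 and none in 61. Among the 54 genes, 16 have a symbol (9 higher, 7 lower) and 38 a locus code only (14 higher, 24 lower). The protein family given below for a locus code is background knowledge and not part of the deposited table. Genes are grouped by that family for reading, and the groups were not tested. The gene lists used below were also not tested. They were chosen with earlier results of these data known, so their counts and medians are a description.

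Genes of the cell wall and the leaf surface were among the falls. EXPA8, an expansin that loosens walls during growth, had intensities of 57.1 and 88.9 in PBZ rosettes against 699.2 and 638.0 in controls. Both PBZ arrays lay far below both control arrays, an 8.32-fold fall (log2 fold change -3.06, SE 0.21, limma adjusted p = 0.00935). The pectate lyase AT3G07010 had 101.7 and 99.2 in PBZ rosettes against 289.7 and 279.1 in controls, with tight replicates in each group (2.67-fold lower, adjusted p = 0.0138). The pectin methylesterase AT3G10720 had 48.9 and 39.1 against 111.7 and 104.4 in controls (2.19-fold lower, adjusted p = 0.0466). WSD1, a wax ester synthase of the cuticle, had 2.9 and 1.8 in PBZ rosettes against 22.8 and 21.3 in controls. It was thus near the bottom of the scale in PBZ and measured in controls (log2 fold change -1.38, SE 0.12, adjusted p = 0.0168).

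Among the genes that passed, 4 that fell belong to the GDSL family, lipases and esterases often secreted into the wall. The measured members of this family were not counted, and 0.281% of all probe sets passed as lower. AT4G18970 had 60.6 and 73.9 in PBZ rosettes against 334.8 and 328.2 in controls. This was the largest of the 4, a 4.44-fold fall with no overlap (log2 fold change -2.15, SE 0.15, limma adjusted p = 0.00966). AT4G28780 had 49.0 and 45.8 in PBZ rosettes against 168.8 and 146.2 in controls (2.91-fold lower, adjusted p = 0.0216). AT4G26790 and AT1G75900 were 2.02-fold and 2.11-fold lower (adjusted p = 0.0466 for each). The SAUR-like gene AT3G53250, of a family linked to auxin-driven cell expansion, had 5.5 and 6.5 in PBZ rosettes against 26.2 and 30.1 in controls (log2 fold change -1.25, SE 0.16, adjusted p = 0.0466).

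Thionins, small toxic defence peptides, held the named gene that fell most. AT1G66100 had 71.7 and 114.6 in PBZ rosettes against 808.3 and 992.7 in controls. Its PBZ arrays were both well below its controls, 8.98-fold (log2 fold change -3.17, SE 0.23, limma adjusted p = 0.0105). The thionin THI2.2 fell too, with 22.5 and 25.8 in PBZ rosettes against 88.1 and 98.9 in controls (3.03-fold, adjusted p = 0.0228). The chitinase AT1G02360 had 5.3 and 8.1 in PBZ rosettes against 33.1 and 31.8 in controls (log2 fold change -1.35, adjusted p = 0.0405). These 3 defence-type genes moved opposite to the defence genes described further on.

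Regulators and receptor-like genes formed another set of falls. AT5G12940, a leucine-rich repeat protein, had 10.3 and 11.6 in PBZ rosettes against 138.6 and 124.8 in controls. The replicates lay close together on both sides of a 6.76-fold fall (log2 fold change -2.76, SE 0.13, limma adjusted p = 0.00487). The call held in 13 of 18 alternative analyses. BZIP61, a bZIP transcription factor, had 4.8 and 2.3 in PBZ rosettes against 65.5 and 61.3 in controls. Its level was under the pseudocount in PBZ only (log2 fold change -2.44, SE 0.15, adjusted p = 0.00935). None of the other 6 measured genes listed as bZIP by their symbol passed, where 0.514% of all probe sets did. The leucine-rich repeat receptor kinase AT1G12460 had 11.3 and 10.5 in PBZ rosettes against 32.8 and 33.6 in controls (2.07-fold lower, adjusted p = 0.0430). AT1G22330, an RNA-binding protein, had 7.7 and 9.0 in PBZ rosettes against 50.2 and 50.9 in controls (3.30-fold lower, adjusted p = 0.00935). Its second probe set had 0.6 and 8.6 in PBZ rosettes against 25.7 and 24.7 in controls, in the same direction without passing (adjusted p = 0.115).

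Enzymes made up much of the remaining falls. MSRB6, a methionine sulfoxide reductase that repairs oxidised protein, had 103.5 and 104.0 in PBZ rosettes against 464.8 and 448.3 in controls. Its SE was the smallest of the 15 largest falls (log2 fold change -2.04, SE 0.11, limma adjusted p = 0.00909). AT3G56060, a flavin oxidoreductase of the glucose-methanol-choline family, had 26.0 and 20.7 in PBZ rosettes against 97.7 and 108.2 in controls (3.39-fold lower, adjusted p = 0.0127). The cytidine deaminase AT4G29610 had 22.9 and 30.3 in PBZ rosettes against 83.0 and 83.3 in controls (2.56-fold lower, adjusted p = 0.0466). GSTU27, a glutathione transferase, had 226.6 and 257.7 against 506.3 and 510.9 in controls, and the acid phosphatase-like AT5G44020 had 610.8 and 582.4 against 1254.8 and 1289.3 (2.06-fold and 2.11-fold lower). Further falls were in the phosphodiesterase-like AT4G38690 (log2 fold change -1.32), the SOUL heme-binding protein AT1G78450 (-1.29), AT3G50120 of the DUF247 family (-1.27), the remorin AT4G00670 (-1.02), the Rab acceptor PRA1.B6 (-0.99) and the Tudor-like AT2G25590 (-0.98).

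Several falls were in genes for which only the locus code is given here. AT5G57760 had 40.9 and 38.8 in PBZ rosettes against 175.7 and 179.5 in controls, a 3.76-fold fall with no overlap (log2 fold change -1.91, SE 0.14, limma adjusted p = 0.0115). AT5G03120 had 101.3 and 95.4 in PBZ rosettes against 310.8 and 329.5 in controls (3.05-fold lower, adjusted p = 0.0168). AT1G26920 had 138.5 and 164.3 in PBZ rosettes against 387.0 and 391.8 in controls, and AT5G55620 had 289.2 and 331.8 against 683.9 and 639.1 (log2 fold change -1.31 and -1.07, adjusted p = 0.0284 and 0.0438). All 4 genes had means above the pseudocount in both groups.

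**Figure D2:**
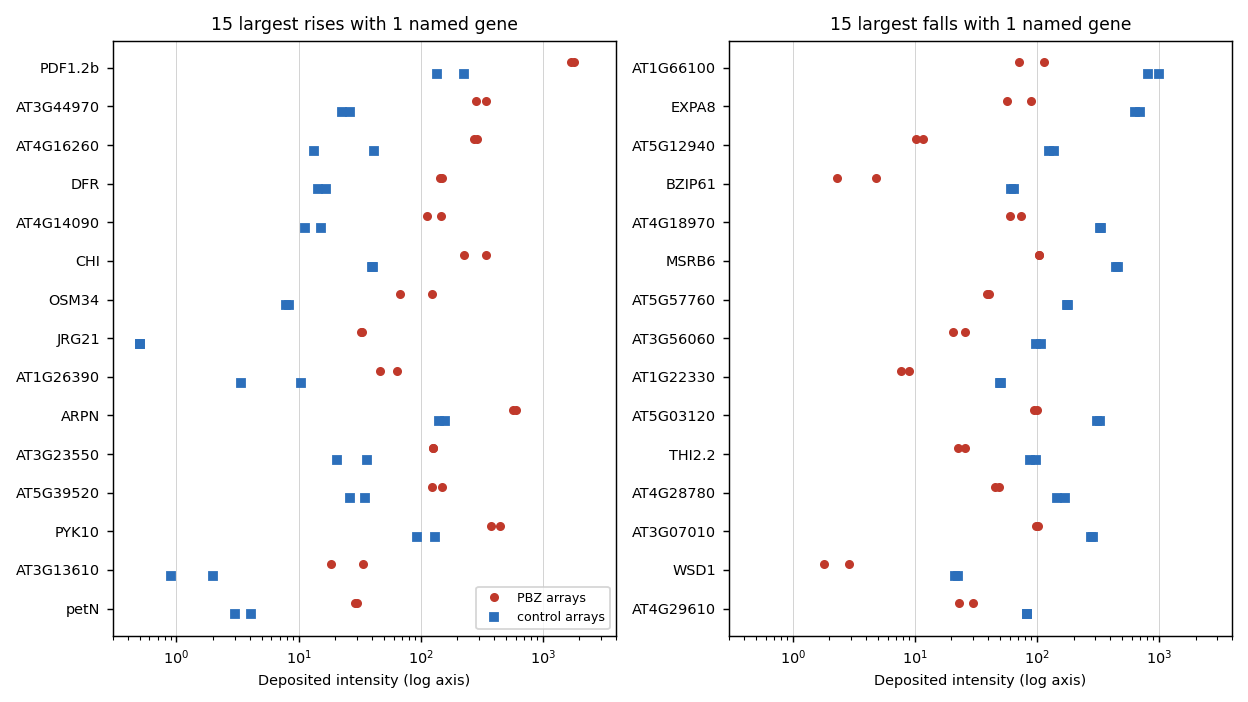
Deposited intensity on each array (log axis) for the 15 largest rises and 15 largest falls that passed and name 1 gene; circles are the 2 PBZ arrays and squares the 2 control arrays. In every gene drawn, the 2 groups of points are apart, and JRG21 has 0.5 on each control array.

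The rises included jasmonate-responsive defence genes. PDF1.2b, an antifungal defensin, had intensities of 1800.1 and 1707.8 in PBZ rosettes against 136.7 and 226.7 in controls, on a probe set that can also bind related defensins. Both PBZ arrays stood far above the controls (9.46-fold, log2 fold change 3.24, SE 0.25, limma adjusted p = 0.0123). PDF1.2 had 751.2 and 1218.6 in PBZ rosettes against 96.6 and 206.1 in controls, with a wider spread, and did not pass (log2 fold change 2.67, SE 0.37, adjusted p = 0.0576). OSM34, an osmotin-like protein, had 68.1 and 123.1 in PBZ rosettes against 7.9 and 8.4 in controls (log2 fold change 2.49, SE 0.29, adjusted p = 0.0405). JRG21, an oxygenase that inactivates jasmonate, had 33.3 and 32.3 in PBZ rosettes against 0.5 and 0.5 in controls, so it was measured in PBZ alone (adjusted p = 0.0340). Of 14 listed jasmonate-responsive defence genes 7 were measured. Among these 7, 3 passed as higher (0.233% of all probe sets did) and THI2.2 passed as lower (0.281% did). The 3 without a call were PDF1.2, THI2.1 and LCR67. THI2.1 and LCR67 overlapped between the groups (log2 fold change 0.53 and 0.11). The median log2 fold change of the 7 was 2.03 beside 0.02 over all genes (1.00 with a pseudocount of 32). Of 22 listed genes of jasmonate synthesis and signalling 0 were measured.

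Among the genes that passed, 3 that rose encode enzymes that attack fungal walls, while the chitinase AT1G02360 fell. The measured genes of this kind were not counted, and 0.233% of all probe sets passed as higher. AT4G16260, a beta-1,3-glucanase, had 273.0 and 288.7 in PBZ rosettes against 13.5 and 41.8 in controls (8.33-fold, log2 fold change 3.06, SE 0.38, limma adjusted p = 0.0458). The PBZ arrays agreed closely while the controls differed by a wide margin. The chitinase AT2G43570, listed with the symbol CHI, had 225.4 and 343.5 in PBZ rosettes against 39.9 and 40.5 in controls (5.75-fold, adjusted p = 0.0137). The chitinase AT2G43620 had 90.3 and 124.1 in PBZ rosettes against 30.3 and 32 in controls (2.82-fold, adjusted p = 0.0402). A pathogenesis-related protein, AT1G78780, had 16.9 and 14.3 in PBZ rosettes against 2.0 and 2.9 in controls (log2 fold change 1.04, adjusted p = 0.0466).

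AT2G43570 and AT2G43620 lie in a row of neighbouring genes on chromosome 2, which was looked at after their values were seen. Between them, AT2G43590 had 95.1 and 139.4 in PBZ rosettes against 42.2 and 53.2 in controls, and AT2G43580 had 16.2 and 14.1 against 0.7 and 5.3, without passing (limma adjusted p = 0.0982 and 0.113). AT2G43600 stayed under 1 on all 4 arrays, and AT2G43610 overlapped between the groups. The genes on either side, AT2G43560 and AT2G43630, had log2 fold changes of -0.19 and -0.07. A second row, on chromosome 1, holds berberine bridge-type flavin enzymes that oxidise small molecules. There AT1G26390 had 46.5 and 64.1 in PBZ rosettes against 3.4 and 10.4 in controls (3.91-fold, adjusted p = 0.0466), and AT1G26380 had 16.1 and 19.9 against 0.6 and 3.1 (log2 fold change 1.25, adjusted p = 0.0660). The next genes, AT1G26400, AT1G26410 and AT1G26420, lay under 10 on every PBZ and control array. A berberine bridge-type gene outside that row, AT1G30700, had 14.8 and 16.8 in PBZ rosettes against 0.6 and 0.6 in controls (log2 fold change 1.28, adjusted p = 0.0413).

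**Figure D3:**
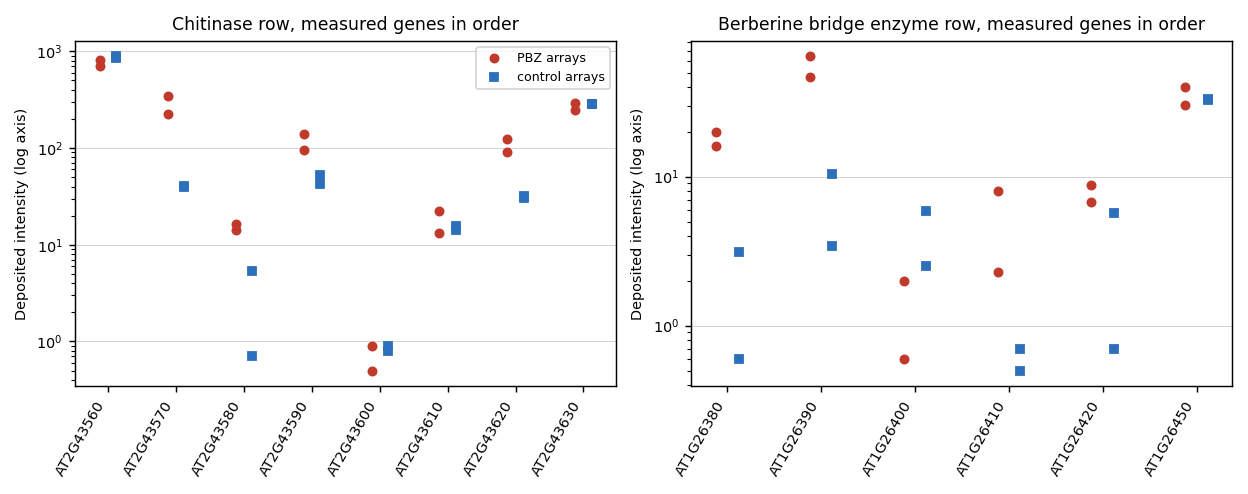
Deposited intensity on each array (log axis) of the measured genes in the chitinase row and the berberine bridge enzyme row, in gene order; circles are PBZ arrays and squares control arrays. AT2G43570, AT2G43620 and AT1G26390 passed, and the outermost genes drawn on the chitinase row lie at about the same level in both groups.

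Metabolic and transport genes with a locus code rose as well, as did ARPN. AT3G44970, a cytochrome P450, had 344.8 and 283.0 in PBZ rosettes against 26.5 and 22.8 in controls. This was a 9.32-fold rise with no overlap (log2 fold change 3.22, SE 0.19, limma adjusted p = 0.00909). It passed in 11 of 18 alternative analyses. None of the 22 measured genes with a CYP symbol passed, where 0.514% of all probe sets did. AT3G13610, the feruloyl-CoA hydroxylase F6'H1 of coumarin synthesis, had 33.6 and 18.6 in PBZ rosettes against 0.9 and 2.0 in controls (log2 fold change 1.63, SE 0.21, adjusted p = 0.0492). The MATE-type efflux carrier AT3G23550 had 126.5 and 126.2 in PBZ rosettes against 20.6 and 36.4 in controls (3.62-fold, adjusted p = 0.0466). ARPN, the copper protein plantacyanin, had 573.4 and 600.3 in PBZ rosettes against 159.6 and 142.6 in controls (3.71-fold, adjusted p = 0.0160). Both PBZ arrays of ARPN lay above both controls.

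The other rises were smaller or in genes of less certain role. The S-locus lectin kinase AT4G27300 had 316.6 and 288.9 in PBZ rosettes against 133.9 and 141.1 in controls (2.12-fold, limma adjusted p = 0.0372). AT5G39520 had 125.0 and 148.5 in PBZ rosettes against 26.6 and 34.8 in controls (3.61-fold, adjusted p = 0.0228). On the plastid genome, petN encodes a small subunit of the cytochrome b6f complex and had 28.9 and 29.9 in PBZ rosettes against 3.0 and 4.1 in controls (adjusted p = 0.0349). Its control arrays lay under the pseudocount, and it passed in 5 of the 17 alternative analyses that tested it. It was the 1 of 69 measured plastid-encoded genes that passed, where 0.514% of all probe sets did. The median log2 fold change of the 69 was -0.10. That median was -0.37 without PBZ replicate 1 and turned to 0.21 without PBZ replicate 2. AT1G50080, the sugar transporter-like AT4G04760 and the oxygenase-type AT1G14120 had 10.0 to 14.9 in PBZ rosettes and at most 2.9 in controls, so the size of their change rests on the pseudocount. Of the named genes that passed, 10 of 23 that rose had a control mean under 10, and 8 of 31 that fell had a PBZ mean under 10.

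Anthocyanins are red and purple pigments made from flavonoids. Of 7 measured genes in the flavonoid and anthocyanin list, 3 passed as higher in PBZ rosettes, as did 0.233% of all probe sets. DFR, dihydroflavonol reductase, had 143.7 and 150.8 in PBZ rosettes against 14.5 and 16.7 in controls. With replicates this close it had 1 of the smallest p-values (6.15-fold, log2 fold change 2.62, SE 0.12, limma adjusted p = 0.00487). It passed in 13 of 18 alternative analyses. The anthocyanin glucosyltransferase AT4G14090 had 113.7 and 147.9 in PBZ rosettes against 15.3 and 11.3 in controls (6.02-fold, adjusted p = 0.0119). UGT78D2, a flavonoid glucosyltransferase, had 120.4 and 115.1 in PBZ rosettes against 38.8 and 48.4 in controls (2.39-fold, adjusted p = 0.0482). UF3GT had 78.8 and 125.4 against 16.5 and 13.1 in controls, and AT5MAT, an anthocyanin malonyltransferase, 38.9 and 38.5 against 11.9 and 11.6, both without overlap and without passing (adjusted p = 0.0643 and 0.0975). UGT78D1 and UGT78D3, which belong to the same glycosyltransferase group, overlapped between the groups. Of 19 listed genes 7 were measured, and the list was chosen with earlier results of these data known. The median log2 fold change of the 7 was 1.26 beside 0.02 over all genes. That median was 0.99 with a pseudocount of 32 and 2.15 after leaving out the 40% dimmest probe sets.

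Endoplasmic reticulum bodies, compartments that store beta-glucosidase for defence, had 1 passing gene, where 0.233% of all probe sets passed as higher. PYK10, their main beta-glucosidase, had 446.5 and 376.5 in PBZ rosettes against 92.6 and 130.2 in controls (log2 fold change 1.81, SE 0.23, limma adjusted p = 0.0466). NAI2, which forms the bodies, had 126.3 and 87.3 in PBZ rosettes against 42.9 and 32 in controls, and their regulator NAI1 had 21.1 and 19.4 against 5.0 and 9.4 (adjusted p = 0.0788 and 0.178). The lectins JAL33, JAL34 and JAL22 were likewise apart without passing (log2 fold change 1.29, 1.17 and 0.78), and JAL23 overlapped. Of 17 listed genes 7 were measured, and 6 had PBZ arrays above both controls, as did 23.2% of all probe sets. The median log2 fold change of the 7 was 1.17 beside 0.02 over all genes (0.89 with a pseudocount of 32 and 1.43 with a pseudocount of 1).

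**Figure D4:**
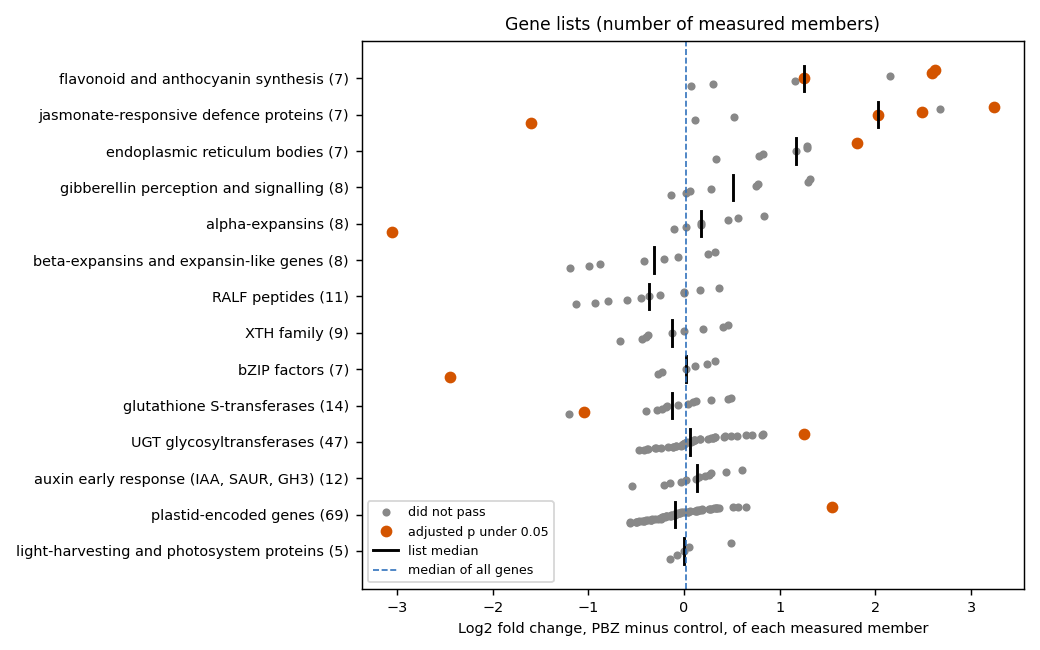
Log2 fold change (PBZ minus control) of every measured member of 14 gene lists, with a black bar at each list's median, orange points for members that passed and a dashed line at the median of all genes (0.02). Flavonoid, jasmonate-responsive and endoplasmic reticulum body genes sit mostly to the right, and EXPA8, BZIP61 and THI2.2 are the passing points furthest left. The lists were chosen with earlier results of these data known.

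Gibberellin perception genes did not pass, where 0.514% of all probe sets did. The receptor GID1B had 42.4 and 52.9 in PBZ rosettes against 10.6 and 16.4 in controls, above both (log2 fold change 1.3, SE 0.21, limma adjusted p = 0.0788). The receptor GID1A had 200.7 and 182.4 in PBZ rosettes against 115.0 and 104.7 in controls, also apart (log2 fold change 0.75, adjusted p = 0.0892). GID1C, the third receptor, had 38.8 and 25.6 in PBZ rosettes against 28.1 and 34.1 in controls and overlapped (log2 fold change 0.02). XERICO, a RING protein that raises abscisic acid and is a DELLA target, had 516.8 and 670.2 against 244.1 and 217.5 in controls (adjusted p = 0.0854). SLY1 had 145.3 and 232.0 in PBZ rosettes against 104.1 and 103.4 in controls, apart but with spread PBZ arrays (adjusted p = 0.216). SPY, SLY2 and SEC, other parts of the pathway, overlapped. Of 14 listed genes 8 were measured, 0 passed by limma, 4 had both PBZ arrays above the controls (23.2% of all probe sets did), and the same number had an unadjusted p under 0.05 (13.7% of all probe sets). The median log2 fold change was 0.51 beside 0.02 over all genes (0.28 after leaving out the 40% dimmest probe sets). The 21 listed genes of gibberellin synthesis and breakdown had no probe set of their own in the annotation, so the feedback on them was not measured here.

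Other wall and growth families held few or no calls, where 0.514% of all probe sets passed. Of 8 measured alpha-expansins EXPA8 alone passed: EXPA16 had 88.4 and 56.0 in PBZ rosettes against 30.6 and 40.3 in controls, in the other direction (limma adjusted p = 0.203), and the median log2 fold change was 0.18 (-0.12 without control replicate 1 and 0.52 without control replicate 2). Among the 8 measured beta-expansins and expansin-like genes, EXPB1 had 14.5 and 17.3 in PBZ rosettes against 34.4 and 40.7 in controls (adjusted p = 0.0735). EXLA1 had 44.1 and 39.3 against 89.6 and 96.4, and EXLA2 12.1 and 4.1 against 31.8 and 29.1, both lower on each PBZ array without passing (adjusted p = 0.127 and 0.153). RALF genes encode secreted peptides that act on wall receptors and slow cell expansion. Of 11 measured RALF genes 0 passed, and the PBZ arrays lay below both controls in 7, beside 18.5% of all probe sets, with a median log2 fold change of -0.36. That median was 0 with intensities raised to a floor of 10, -0.59 without control replicate 2, and between -0.70 and -0.16 with the other pseudocounts or without the 40% dimmest probe sets. RALFL33 had 291.1 and 367.0 in PBZ rosettes against 638.8 and 827.4 in controls, and RALFL22 had 89.3 and 112.6 against 207.7 and 193.0 (adjusted p = 0.0984 and 0.109). XTH16, a xyloglucan-modifying enzyme, had 38.0 and 45.1 in PBZ rosettes against 69.8 and 74.1 in controls (adjusted p = 0.126), and none of 9 measured XTH genes passed.

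Of the 117 passing probe sets, 61 have no gene name here, 28 higher and 33 lower in PBZ rosettes. The largest rises among them were in 261768_at, with 363.1 and 332.4 in PBZ rosettes against 37.4 and 21.6 in controls (log2 fold change 3.21), and in 260101_at (3.03). The largest fall was in 260221_at, with 164.0 and 137.7 in PBZ rosettes against 1262.6 and 1249.6 in controls (log2 fold change -2.98, SE 0.13, limma adjusted p = 0.00487). Next came 259773_at (-2.46). The call on 260221_at held in 12 of 18 alternative analyses, and the alternative without unnamed probe sets did not test it.

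For some of these genes the GA-sprayed plants, compared with the same control arrays, give a further level. In GA against control 0 of 22746 probe sets passed by limma, and 1931 (8.49%) had an unadjusted p under 0.05, so the GA values below are a description. BZIP61 had 4.8 and 2.3 in PBZ rosettes, 142.4 and 123.1 in GA rosettes and 65.5 and 61.3 in controls. AT1G66100 had 71.7 and 114.6 in PBZ rosettes, 1510.6 and 1438.6 in GA rosettes and 808.3 and 992.7 in controls. AT5G12940 had 10.3 and 11.6 in PBZ rosettes, 124.7 and 137.1 in GA rosettes and 138.6 and 124.8 in controls, so its GA and control arrays overlapped. The chitinase AT2G43570 had 225.4 and 343.5 in PBZ rosettes, 115.6 and 127.9 in GA rosettes and 39.9 and 40.5 in controls. EXPA8 had 57.1 and 88.9 in PBZ rosettes, 391.7 and 442.3 in GA rosettes and 699.2 and 638.0 in controls. On these arrays both treatments lay above the controls in AT2G43570 and below them in EXPA8. They lay on opposite sides of the controls in BZIP61 and AT1G66100. GA against control did not pass in AT2G43570, EXPA8, BZIP61 or AT1G66100 (limma adjusted p = 0.143, 0.423, 0.149 and 0.448).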

How the data were processed

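The authors deposited 1 linear intensity per probe set and array. The mean after trimming 2% at each end was 100.01 on all 6 arrays, so the deposited intensities had been scaled; per the submitters' processing notes RMA and affy were used, but RMA gives log2 values, and how this table was made is not stated in those sources. Between 26.8% and 29.4% of values per array lay under 10. After leaving out 64 control probe sets, log2(intensity + 10) of 22746 probe sets was fitted with limma 3.58.1 in R 4.3.3, all 6 arrays in 1 fit with a mean per group (3 residual and 3.07 prior degrees of freedom). Benjamini-Hochberg adjustment ran over all 22746 p-values. With 2 arrays against 2, an exact permutation test cannot go below p = 0.333.

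The platform annotation names 1 gene for 13513 probe sets, several for 503 and none for 8730; symbols came from RefSeq (TAIR10.1), with 13436 matched. List members were read from their brightest probe set. A listed gene counted as not measured may lie among unnamed probe sets. Named are the 15 largest passing changes each way, other passing genes, list members that passed or had the smallest p-values, and fixed gibberellin genes. The members and lists were chosen with earlier results of these data known. The pipeline was tested on simulated data. Shared replicate numbers did not pair the samples (correlations of deviations -8e-04 to 0.0313).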

Additional observations from a re-analysis of the deposited data

How the results depend on the processing

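No named gene that passed changed direction in any alternative. The lack of overlap between PBZ and control arrays largely fixed this in advance, so it is no check of the calls. None of these genes passed in all alternatives. The count of 117 passing probe sets did change. It was 47 with the replicate number as a block (replicate block, 25 higher and 22 lower, 44 of them shared with the 117), 4 with PBZ and control arrays alone, 333 with a prior variance that follows the intensity, 548 after dropping the 40% dimmest probe sets, 23 when cross-hybridising and unnamed probe sets were left out (6 higher, 17 lower), 0 and 248 with pseudocounts of 1 and 32, and 3 with a minimum log2 fold change of 1. Leaving out each array in turn gave 0 to 4. A robust prior gave 82, quantile normalization 114 and median centring 131. A floor of 10 gave 99, of which 32 were shared and 58 were higher and 41 lower. The cause of these shifts was not tested. Each of the 117 passed in 1 to 13 of 18 alternatives (median 6), where an alternative that left a probe set out counted as not passing. Among gene list medians, 214 values under alternatives moved by less than the spread and 49 by more. Having 2 arrays a group limits precision: the median SE was 0.16.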

Other observations

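Lists for photosynthesis and abiotic stress held no passing gene by limma, where 0.514% of all probe sets passed, but few of their members were measured. These were 5 of 34 light-harvesting and photosystem genes and 5 of 17 chlorophyll synthesis genes. Of 16 cold and drought genes 4 were measured. The plastid-encoded petN, which passed, was in another list. LHCB4.3, a minor light-harvesting protein, had 774.3 and 742.7 in PBZ rosettes against 565.8 and 508.6 in controls (adjusted p = 0.186), while LHCB4.1 and LHCB4.2 overlapped between the groups. The dehydrin LTI30 had 429.4 and 289.8 in PBZ rosettes against 210.2 and 175.9 in controls, and the cold-induced COR15B had 2379.1 and 1923.0 against 3184.8 and 2694.2 (adjusted p = 0.225 and 0.364). PRX52, a cell wall peroxidase, had 29.7 and 34.5 in PBZ rosettes against 9.4 and 15.1 in controls (adjusted p = 0.110). UGT72E1, which glucosylates lignin precursors, had 156.1 and 142.8 in PBZ rosettes against 76.0 and 85.7 in controls (adjusted p = 0.0952). GSTU26 had 33.0 and 21.5 in PBZ rosettes against 79.8 and 69.8 in controls (adjusted p = 0.0788), lower like its passing relative GSTU27.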
